A study of Homo sapiens with 5 samples.

Results

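The genes described here are those of the MCM helicase and of origin licensing, chosen by name: the ring subunits MCM2 to MCM7, the replication factor MCM10, the loading factors CDC6 and CDT1, and the inhibitor GMNN (geminin). Of the 10 names, 9 had a row among the 13638 rows of the count table, each with a single transcript, and MCM3 was not analysed here. All 9 passed the filter on low counts. The genes were chosen with earlier results of these data known. The levels are ribosome footprints, the stretches of mRNA that ribosomes shield from nuclease. A gene's count therefore follows both its amount of mRNA and its occupancy by ribosomes, and these were not separated. In such bulk lysates, fewer cells that express a gene and a lower level per cell cannot be told apart.

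Footprints were counted in 3 libraries labelled ZCCHC4 knockout and 2 libraries labelled wild type, all from HAP1 cells, a near-haploid human line that goes back to a patient's chronic myeloid leukaemia. ZCCHC4 is the methyltransferase to which the series assigns the N6-methyladenosine mark of 28S ribosomal RNA. No treatment is given for either genotype. Whether replicates were separate cultures, and whether the knockout is a single clone, is not stated in the labels. The p-values therefore reflect only how these 5 libraries scatter, and that scatter may be technical.

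Before a cell copies its DNA, each origin of replication is licensed. The origin recognition complex (ORC) and CDC6 sit on the DNA, and CDT1 brings in the ring of MCM2 to MCM7, which is loaded in an inactive form. In S phase the kinases CDK and DDK, with CDC45, the GINS complex and MCM10, turn the ring into the active helicase that opens the double strand. Geminin binds CDT1 in S and G2 phases, and CDT1 is also destroyed then, so that no origin is licensed again before mitosis. Many of these genes are transcribed under E2F factors as cells pass from G1 into S phase.

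The sequences upstream of these genes were searched for E2F-like letters, and the matches are shown because E2F control is the textbook feature that these genes share. RefSeq promoter windows (GRCh38.p14) were found for MCM2, MCM6, MCM7, MCM10, CDC6, CDT1 and GMNN. The motifs were TTTCCCGC, TTTCGCGC, TTTGCCGC and TTTGGCGC, on both strands, in the 250 bases before the start that RefSeq annotates, which for MCM2, MCM7, CDC6, CDT1 and GMNN lies inside the longer transcript counted here. With each gene counted once, at least 1 match was found for 4 of these 7 genes, against 5.73% of 8740 tested genes with a window. The windows of MCM2, MCM10 and CDC6 held no match. The stretch of MCM6, on chromosome 2 (minus strand, chr2:135876504-135876603, from 160 to 61 bases before the start), held 4 matches, in overlapping pairs on opposite strands. MCM7 on chromosome 7 held 2 matches, CDT1 on chromosome 16 held 1 and GMNN on chromosome 6 held 1. Capitals mark the matched letters, and each line reads 5′ to 3′ along the strand of the gene. Of the other letters searched in the same windows, CCAAT was found for 5 of the 7 genes, against 41.5% of the tested genes, and TTTGAA or TTCGAA, as in the CHR element of cell cycle genes, for 1 of 7, against 13.1%. A match in these letters is a description, and binding by E2F was not measured.
MCM6: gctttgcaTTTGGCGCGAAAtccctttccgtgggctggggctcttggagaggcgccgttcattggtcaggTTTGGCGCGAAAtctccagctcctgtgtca
MCM7, 187 bases before the start (chr7:100101567-100101594, minus strand): agctcggaccGCGGGAAAcccggcgcct
MCM7, 9 bases before the start (chr7:100101398-100101416, minus strand): gggggcgacgTTTCGCGCc
CDT1, 35 bases before the start (chr16:88803744-88803771, plus strand): cagggcgcccGCGGGAAAtttggcggga
GMNN, 80 bases before the start (chr6:24775323-24775350, plus strand): ctgggtcggtTTTGGCGCgctctcactt

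Library totals were 16940732 to 31557573 counts in the knockout and 5302160 and 4887380 counts in wild type, so depth and genotype moved together. Levels are given as CPM, counts relative to the library total after TMM scaling between libraries. On this scale a single count was worth 0.0339 to 0.0619 CPM in the knockout and 0.172 and 0.187 CPM in wild type. The targeted gene, ZCCHC4, had 105, 55 and 147 counts in the knockout libraries and 93 and 71 counts in wild type. This was 3.41 to 4.98 CPM in the knockout and 16.0 and 13.3 CPM in wild type (edgeR adjusted p = 7.27e-05). The lowest count of any licensing gene in a library was 1889 in the knockout and 181 in wild type, both for CDT1. Knockout replicate 2 stood apart from the other knockout libraries. A chi-square test over genes gave 27.7 and 24.6 per degree of freedom between it and knockout replicates 1 and 3, against 2.97 between those replicates and 1.14 between the wild-type libraries. This value grows with depth for the same relative difference. The value of the shallower wild-type libraries is therefore not directly comparable with those of the knockout. The HAP1 fusion partner BCR had 4.27 to 4.55 CPM in the knockout and 6.38 and 7.28 CPM in wild type. Its log2 fold change was -0.62 ± 0.18, on 37 and 39 counts in wild type, a call that was lost under 9 alternatives. ABL1, the other fusion partner, had 9 and 4 counts in wild type and did not pass. The table does not resolve the fusion itself. The 6 of 12 haematopoietic markers with a row summed to 36.3 to 40.5 CPM in the knockout and 37.3 and 35.7 CPM in wild type, but single markers differed in opposite directions. Of the 3 markers tested, KIT, a growth factor receptor, fell to 1.64 ± 0.256 CPM in the knockout, against 11.3 ± 1.14 CPM in wild type (log2 fold change -2.80 ± 0.21, edgeR adjusted p = 7.25e-06). The transcription factor GATA2 rose by 0.95 ± 0.12, and TAL1, another one, stood at -0.66 ± 0.22, a call that was lost under 4 alternatives. Among markers of other cell types, the epithelial EPCAM rose to 4.72 ± 0.481 CPM in the knockout, against 1.35 ± 0.202 CPM in wild type (1.82 ± 0.29). EPCAM had only 7 and 8 counts in wild type. KRT18 stood at -0.11 ± 0.10 and did not pass. Without knockout replicate 2, 1 of the 2 tested epithelial markers rose and 1 fell. Of 5 fibroblast markers with a row, only 1 was tested, the collagen COL1A1. It fell by 0.83 ± 0.20 on the log2 scale, a call that was lost without wild-type replicate 2. BCR, ABL1 and these markers were named after their values were seen, and their part in the results was not tested.

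All 9 licensing genes rose in the knockout libraries relative to the other genes, by 1.36-fold to 2.62-fold. Each passed edgeR's quasi-likelihood test at a Benjamini-Hochberg adjusted p under 0.05 over the 11205 genes tested, where 30.2% of all genes tested rose and 29.8% fell. The median log2 fold change of knockout over wild type was 0.99 for the 9 genes and 0.02 for all genes tested. At least a 2-fold rise was found for 4 of the 9, against 10.0% of all genes tested. In each of the 9 genes all 3 knockout libraries lay above both wild-type libraries, which held for 38.5% of all genes tested. In either direction, 60.0% of all genes tested passed and 76.4% had genotypes that did not overlap, so a call or a gap between the groups is common in these libraries. The shared direction of all 9 genes is to be read against the 30.2% of genes that rose. Because the genes were chosen with earlier results of these data known, setting them beside these shares is a description and no test.

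**Figure D1:**
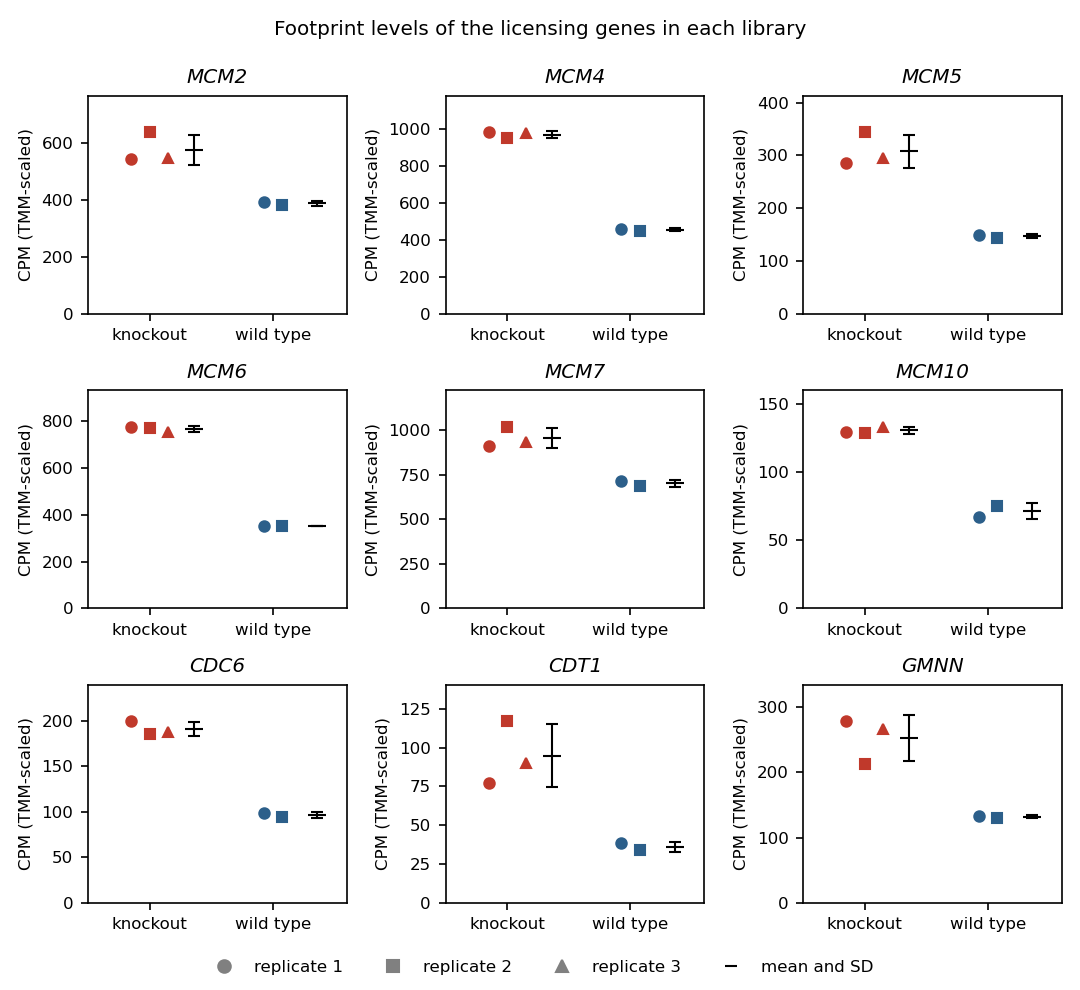
TMM-scaled CPM of each of the 9 licensing genes (vertical axes, each starting at 0) in the 3 knockout and 2 wild-type libraries, with the mean and SD beside the points. In every panel the knockout points lie above the wild-type points, and replicate 2 is the highest knockout library for CDT1 and the lowest for GMNN.

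The ring subunits MCM6, MCM4 and MCM5 each rose by a little more than 2-fold. MCM6, an ATPase subunit of the ring (ENST00000264156, GRCh38 chromosome 2, 135839626 to 135876426, minus strand, 17 exons), had 776, 772 and 752 CPM in the knockout libraries and 350.3 and 352 CPM in the wild-type libraries. The 3 knockout values lay close together and far above the wild-type pair. The log2 fold change was 1.13 ± 0.06 (SE; edgeR adjusted p = 1.48e-06), on means of 767 ± 12.6 CPM in the knockout and 351 ± 1.26 CPM in wild type (SD, n = 3 and n = 2). MCM4, the neighbouring ATPase subunit in the ring (ENST00000523944, chromosome 8, 47960898 to 47978160, plus strand), had 982, 948 and 978 CPM in the knockout and 459 and 449.8 CPM in wild type. Its log2 fold change was 1.09 ± 0.06 (edgeR adjusted p = 1.58e-06), and its libraries also lay close together within each genotype. MCM5, which with MCM2 forms the gate through which the ring opens (ENST00000216122, chromosome 22, 35400063 to 35425430, plus strand), had 286, 344 and 294 CPM in the knockout and 149.6 and 144 CPM in wild type. Knockout replicate 2 was the highest of these. The log2 fold change of MCM5 was 1.07 ± 0.10 (edgeR adjusted p = 2.14e-05).

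MCM2 and MCM7 rose with smaller fold changes. MCM2, the subunit that also binds histones H3 and H4 (ENST00000265056, chromosome 3, 127598223 to 127622436, plus strand), had 544, 639 and 549.5 CPM in the knockout and 395 and 383 CPM in wild type. Its log2 fold change was 0.57 ± 0.09 (edgeR adjusted p = 0.000406), a 1.48-fold rise. MCM7, another ATPase subunit (ENST00000303887, chromosome 7, 100092781 to 100101940, minus strand), had 912, 1019 and 935 CPM in the knockout and 715 and 689 CPM in wild type. With a log2 fold change of 0.44 ± 0.07 (edgeR adjusted p = 0.000519), or 1.36-fold, it changed least of the 9. The groups did not overlap for either gene, and knockout replicate 2 was the highest library for both. Exons of MCM2 overlap those of an antisense gene and of TPRA1, and exons of MCM7 overlap those of AP4M1, all on the opposite strand, and the use of strand in the counting is not given in the sources used here.

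The summed level of the 5 ring subunits with a row rose with its parts. It was 3499, 3722 and 3509 CPM in the knockout libraries and 2070 and 2017 CPM in the wild-type libraries, a ratio of 1.75. These subunits took 0.327%, 0.355% and 0.328% of all counts in the knockout and 0.226% and 0.221% in wild type. An exact two-sided permutation test over the 5 libraries gave p = 0.2, which is the smallest value that 10 regroupings allow.

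**Figure D2:**
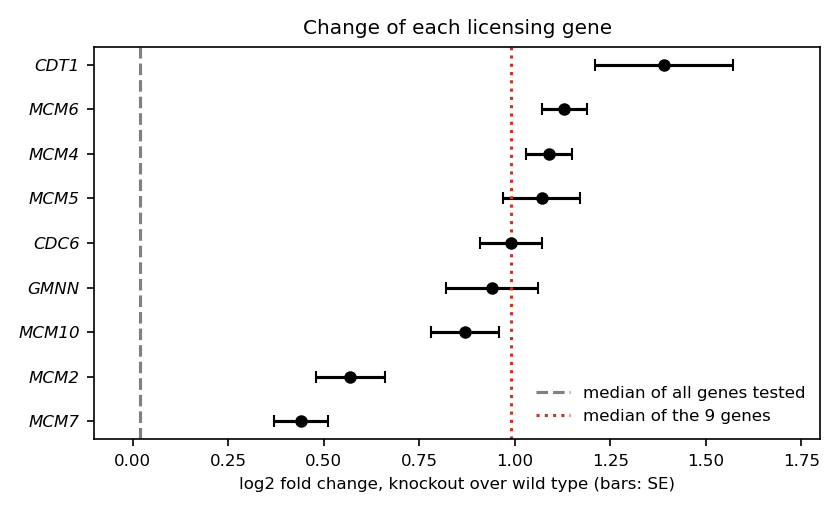
Log2 fold change of knockout over wild type with its standard error for each licensing gene, ordered by size, with the median of all genes tested (0.02, dashed) and of the 9 genes (0.99, dotted). CDT1 is at the top at 1.39, and MCM2 and MCM7 at 0.57 and 0.44 lie apart from the other ring subunits.

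The proportions of the ring subunits differed between the genotypes. Levels between genes were compared per length, as CPM per kb of coding sequence. MCM7 stood at 443 ± 26.1 CPM per kb in the knockout and 325 ± 8.66 CPM per kb in wild type (SD, n = 3 and n = 2), the highest of the subunits in both. MCM4 stood at 374 ± 7.10 and 176 ± 2.62 CPM per kb in knockout and wild type. MCM6 was at 311 ± 5.10 CPM per kb in the knockout and 143 ± 0.511 in wild type. MCM2, at 213 ± 19.8 CPM per kb in the knockout, lay below MCM6 in all 3 knockout libraries. In wild type MCM2 was at 143 ± 3.29 CPM per kb, and its order against MCM6 differed between the wild-type libraries. MCM5 was the lowest, at 139.9 ± 14.2 CPM per kb in the knockout and 66.7 ± 1.74 CPM per kb in wild type.

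The highest subunit exceeded the lowest by 3.25, 3.03 and 3.24 times in the knockout libraries and by 4.88 times in both wild-type libraries. The coefficient of variation over the 5 subunits was 42.2%, 39.2% and 42.3% in the knockout and 56.3% and 55.3% in wild type. The levels per length of these subunits, without MCM3, thus lay closer together in the knockout. This narrowing follows from the fold changes above and is no separate result. MCM7, the highest subunit in wild type, had the smallest change, and MCM5, the lowest, rose 2.10-fold. The changes did not follow the order of levels, since MCM4, next below MCM7 in wild type, rose 2.13-fold. MCM6 and MCM2, at like levels in wild type, rose 2.18-fold and 1.48-fold. The count ratio of MCM6 to MCM7 was 0.851, 0.757 and 0.805 in the knockout and 0.490 and 0.511 in wild type, and that of MCM4 to MCM7 was 1.08, 0.930 and 1.05 in the knockout and 0.642 and 0.653 in wild type. Neither ratio overlapped between the genotypes (exact permutation p = 0.2 for each, the smallest possible). MCM7 changed least of the licensing genes, so this gap restates the fold changes above and is no separate result. The ratio of MCM4 to MCM6 was 1.27, 1.23 and 1.30 in the knockout and 1.31 and 1.28 in wild type, with overlapping groups (exact permutation p = 0.4). Ratios within a library do not depend on the scaling between libraries. These ratios, and those of CDC6 to CDT1 and of the ring sum to MCM10 below, were not planned.

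**Figure D3:**
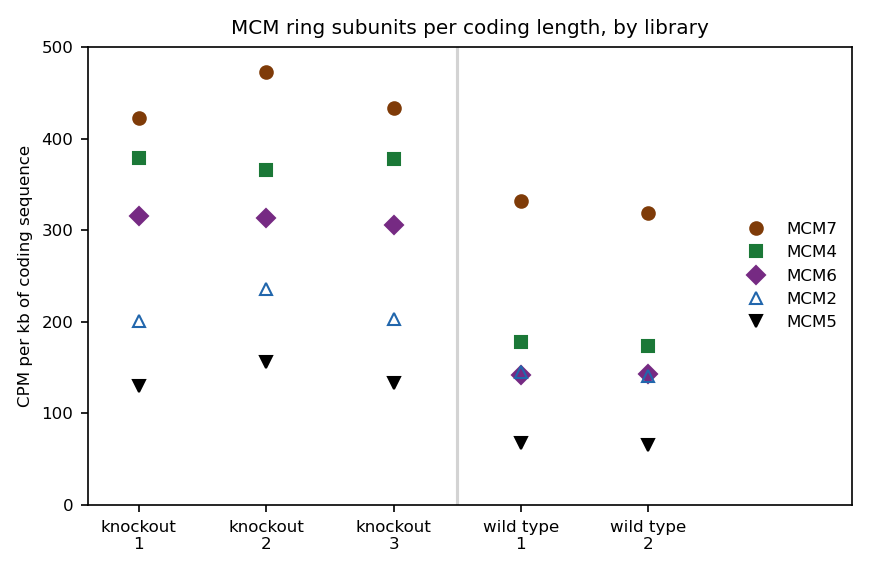
Levels of the 5 ring subunits with a row in each library, as TMM-scaled CPM per kb of coding sequence. MCM7 is highest and MCM5 lowest in all 5 libraries, and the distance between MCM7 and the subunits MCM4 and MCM6 is smaller relative to their level in the knockout libraries.

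The loading factors rose together with the ring. CDC6, the ATPase that joins ORC on the DNA to load the ring (ENST00000209728, chromosome 17, 40287633 to 40304657, plus strand), had 199.6, 186 and 188 CPM in the knockout and 98.5 and 94.5 CPM in wild type. The log2 fold change of CDC6 was 0.99 ± 0.08 (edgeR adjusted p = 1.19e-05), a 1.98-fold rise with no overlap. CDT1, which escorts the MCM ring to ORC and CDC6 (ENST00000301019, chromosome 16, 88803213 to 88809258, plus strand), had 77.0, 117 and 90.1 CPM in the knockout and 38.3 and 33.8 CPM in wild type. It had the largest rise of the 9 genes, with a log2 fold change of 1.39 ± 0.18 (edgeR adjusted p = 0.000181), and also the widest spread among the knockout libraries, at 21.5% of their mean. Without knockout replicate 2 its log2 fold change was 1.21. CDT1 was the least counted of the 9 genes, with 222 and 181 counts in wild type.

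The inhibitor of CDT1 rose as well. GMNN, which encodes geminin (ENST00000356509, chromosome 6, 24774931 to 24786095, plus strand), had 278, 213 and 267 CPM in the knockout and 134 and 130.5 CPM in wild type. Its log2 fold change was 0.94 ± 0.12 (edgeR adjusted p = 0.000154), and the lowest knockout library, replicate 2, still lay above both wild-type libraries. When a smooth trend on the length and GC content of coding sequences and on level was taken out, an alternative added after the data were seen, the log2 fold change of GMNN was 0.45 (edgeR adjusted p = 0.00982, the largest over its alternatives). The count ratio of GMNN to CDT1 was 3.62, 1.82 and 2.96 in the knockout and 3.49 and 3.86 in wild type. The groups overlapped, the exact two-sided permutation test gave p = 0.4, and replicate 2 alone was far from the rest. The ratio of CDC6 to CDT1 was 2.59, 1.59 and 2.09 in the knockout and 2.57 and 2.80 in wild type, which also overlapped (exact permutation p = 0.4).

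MCM10, which is not part of the ring and helps to activate the loaded helicase (ENST00000484800, chromosome 10, 13161579 to 13209736, plus strand), had 129.9, 129 and 134 CPM in the knockout and 67.4 and 75.6 CPM in wild type. The log2 fold change of MCM10 was 0.87 ± 0.09 (edgeR adjusted p = 3.82e-05). The summed count of the ring subunits was 26.9, 28.8 and 26.3 times that of MCM10 in the knockout and 30.7 and 26.7 times in wild type, with overlapping groups (exact permutation p = 0.6).

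Per kb of coding sequence, the order of the other genes against the ring was as follows. In wild type GMNN, at 211 ± 3.39 CPM per kb, lay between MCM7 and MCM4, while CDC6 at 57.4 ± 1.69 lay below all ring subunits. MCM10 at 27.2 ± 2.20 and CDT1 at 22.0 ± 1.94 CPM per kb were the lowest in wild type. In the knockout GMNN, at 403 ± 56.2 CPM per kb, had a range of 339 to 444 that held all 3 values of MCM4 and overlapped that of MCM7. CDC6 was at 114 ± 4.39 CPM per kb there. CDT1 at 57.8 ± 12.4 and MCM10 at 49.9 ± 0.892 CPM per kb overlapped in the knockout.

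Among the 9 genes, the place of knockout replicate 2 followed the GC content of the coding sequence. Relative to the mean of knockout replicates 1 and 3, replicate 2 was higher by 0.49 on the log2 scale for CDT1, whose coding sequence is 68.3% GC, and by 0.24, 0.23 and 0.14 for MCM5, MCM2 and MCM7, at 59.9%, 59.1% and 55.7% GC. It was within 0.06 for MCM4, MCM10, MCM6 and CDC6, at 44.7% to 50.1% GC. For GMNN, at 39.9% GC, it was at -0.36. Pearson's r between this difference and the GC content was 0.965 over the 9 genes and 0.657 over 11158 tested genes, as a description, since genes of a library share its preparation. The knockout over wild-type changes themselves had r = 0.117 with GC content over the 9 genes and r = -0.107 over the tested genes. Without replicate 2 all 9 genes again rose, with log2 fold changes of 0.39 for MCM7 to 1.21 for CDT1.

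**Figure D4:**
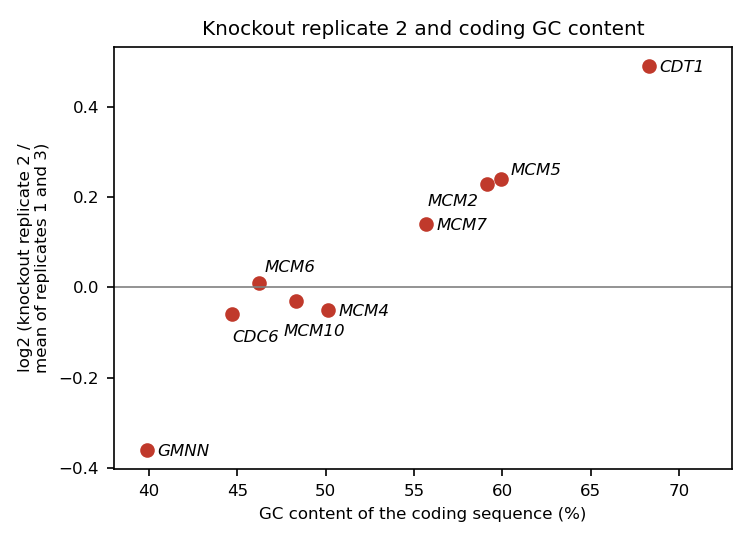
GC content of the coding sequence (horizontal axis) against the log2 ratio of knockout replicate 2 to the mean of knockout replicates 1 and 3 (vertical axis) for the 9 licensing genes. GMNN at 39.9% GC lies at -0.36 and CDT1 at 68.3% GC lies at 0.49, with the ring subunits between them.

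Other genes of the pathway were described from lists of names, which were also chosen with earlier results of these data known. The counts in these lists stand beside the 30.2% of all genes tested that rose and the 29.8% that fell. Of the 6 ORC genes, which mark origins, 5 rose and 1 did not pass. The median log2 fold change of the ORC genes was 0.65. ORC1, the subunit that is itself degraded and remade with the cell cycle, had 94.5 ± 2.44 CPM in the knockout and 37.5 ± 4.25 CPM in wild type (SD, n = 3 and n = 2; log2 fold change 1.34 ± 0.10). ORC5 and ORC6 rose by 1.08 ± 0.12 and 0.60 ± 0.10 on the log2 scale. ORC3, named after its value was seen, was the gene that did not pass, at 0.02 ± 0.11, and it lay below 0 under 9 alternatives.

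Of 13 tested genes that fire licensed origins or form the active helicase with the ring, 10 rose and 1 fell, with a median of 0.66. Among all genes tested 30.2% rose and 29.8% fell. CDC45 was not analysed here. TICRR, which brings CDC45 to the loaded ring, had 87.8 ± 3.92 CPM in the knockout and 31.1 ± 0.162 CPM in wild type (1.49 ± 0.10). GINS2, a subunit of the GINS complex, and CDC7, the catalytic subunit of the kinase DDK that phosphorylates the ring, rose by 1.45 ± 0.11 and 1.36 ± 0.12. MTBP, a partner of TICRR named after its value was seen, was the gene that fell, at -0.44 ± 0.10 (edgeR adjusted p = 0.00445). MTBP no longer passed when wild-type replicate 2 was left out (adjusted p = 0.0589) or when near-identical libraries were summed (adjusted p = 0.0997). TICRR, GINS2 and CDC7 passed at edgeR adjusted p values of 3.38e-06, 6.59e-06 and 2.21e-05.

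The 2 tested relatives of the ring had smaller fold changes than its subunits. For MCMBP the gap to MCM7 (0.44 ± 0.07) was within the standard errors, and the contrast was not tested. MCMBP, a binding protein of MCM2 to MCM7, rose to 267 ± 18.1 CPM in the knockout, against 205 ± 0.202 CPM in wild type (0.38 ± 0.08, edgeR adjusted p = 0.0028). This call was lost with library totals (adjusted p = 0.0852), with the near-identical libraries summed (adjusted p = 0.154), and with a trend on coding length and level taken out, without or with GC content (adjusted p = 0.0599 and 0.0801). Over its alternatives the adjusted p ran from 1.17e-13 to 0.154. MCM8, a paralog that acts with MCM9 in DNA repair and not in licensing, had 75.0, 64.8 and 71.6 CPM in the knockout and 64.3 and 72.4 CPM in wild type. The groups overlapped and it did not pass (0.05 ± 0.10, edgeR adjusted p = 0.718). MCM9, MCM3AP and MCMDC2 were not analysed here.

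Of 18 tested genes that control licensing, most of them through cyclin-dependent kinases or protein destruction, 11 rose and 2 fell, with a median of 0.56. Among all genes tested 30.2% rose and 29.8% fell. The list also held the histone acetyltransferase gene KAT7 and the sliding clamp gene PCNA. FBXO5, also called EMI1, the inhibitor of the ubiquitin ligase that destroys geminin, had 103 ± 19.1 CPM in the knockout and 20.4 ± 0.00287 CPM in wild type (2.34 ± 0.18), a larger log2 fold change than that of any of the 9 licensing genes. CCNE1, cyclin E1 of the G1/S transition, rose by 2.19 ± 0.17, on 784, 427 and 866 counts in the knockout and 30 and 39 counts in wild type. DTL, the substrate receptor through which CDT1 is destroyed in S phase, rose by 1.06 ± 0.08. The genes that fell, CUL4A and HUWE1, were named after their values were seen; they encode a scaffold and an enzyme of ubiquitin ligation and stood at -0.23 ± 0.08 and -0.47 ± 0.06. The call of CUL4A (edgeR adjusted p = 0.0289) was lost under 6 alternatives, with adjusted p up to 0.368, among them leaving out either wild-type library or knockout replicate 3. That of HUWE1 was lost with the trend on coding length, GC content and level taken out (adjusted p = 0.0577).

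Genes of the cell cycle phases were counted beside these, again against 30.2% of all genes tested that rose and 29.8% that fell. Of 19 tested S phase genes, 14 rose and 5 did not pass. PCNA, which rose by 0.53 ± 0.06, stood in both this list and that of licensing control and is counted in each. Their median was 0.72, and the list included RRM2 (1.92 ± 0.07), FEN1 (1.41 ± 0.10) and RRM1 (0.93 ± 0.06). TYMS and POLA1, named after their values were seen, had log2 fold changes of -0.08 ± 0.07 and -0.13 ± 0.08 and did not pass. Under 4 alternatives for TYMS and 3 for POLA1 they passed as lower in the knockout, at down to -0.49 for TYMS with the trend on coding length and level taken out and -0.35 for POLA1 with library totals. Of 12 tested G2/M genes, 7 rose and 2 fell, with a median of 0.43. BUB1 and CCNB2 rose by 0.64 ± 0.07 and 0.56 ± 0.07, and CCNB2 stood at 0.16 (edgeR adjusted p = 0.0611) with the trend on coding length, GC content and level taken out. TOP2A fell by 0.77 ± 0.07 on the log2 scale. The other gene of this list that fell, AURKB, was named after its value was seen and stood at -0.52 ± 0.07 (edgeR adjusted p = 0.000265). The S phase list summed to 5574 to 5810 CPM in the knockout and 3401 and 3462 CPM in wild type. The G2/M list summed to 5389 to 6068 CPM in the knockout and 5574 and 5639 CPM in wild type, with overlapping groups. TOP2A alone made up 1103 to 1254 CPM of this sum in the knockout and 2003 and 2077 CPM in wild type. Without TOP2A, left out after the sums were seen, the G2/M list summed to 4814, 4286 and 4825 CPM in the knockout and 3571 and 3562 CPM in wild type, with no overlap. TOP2A fell most of this list, so leaving it out raises the knockout sum relative to wild type. Of all genes tested, 38.5% had every knockout library above both wild-type libraries. The part of cell cycle distribution in the rise of the licensing genes was not tested.

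**Figure D5:**
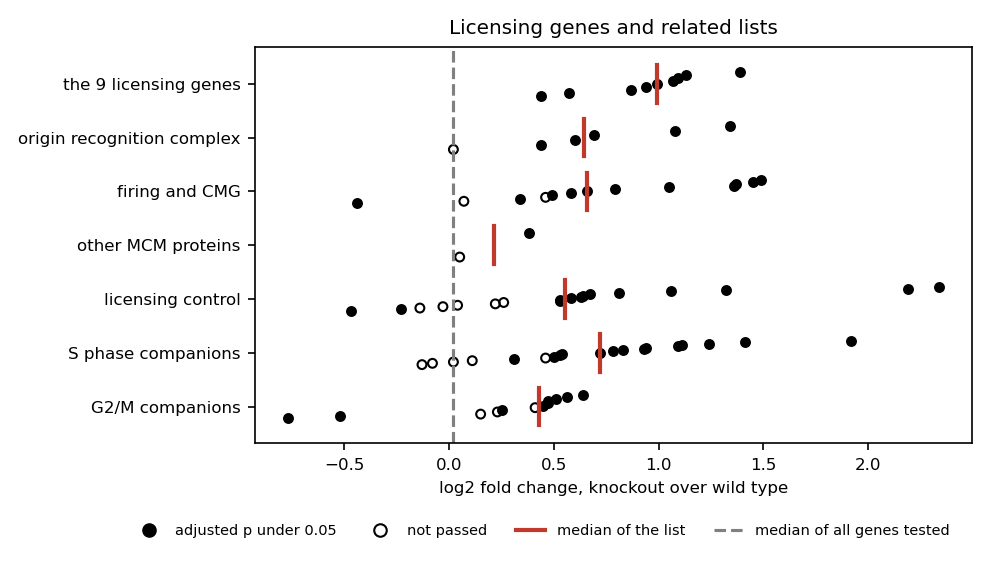
Log2 fold changes of knockout over wild type for the 9 licensing genes and for each related list, 1 point per tested gene (filled where the edgeR adjusted p was under 0.05), with the median of each list as a vertical bar and the median of all genes tested as a dashed line. All 9 licensing genes lie to the right of the dashed line, with a median of 0.99. The medians of the lists are 0.72 for S phase, 0.66 for firing and 0.65 for ORC. They are 0.56 for licensing control, 0.43 for G2/M and 0.22 for other MCM proteins. Single genes of the firing, licensing control and S phase lists lie further right than any of the 9.

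The genes around each licensing gene did not all move with it. Counts of neighbours are to be read against the 30.2% of all genes tested that rose and the 29.8% that fell. Within 2 Mb on either side of MCM4, all 4 tested genes fell, with a median log2 fold change of -1.15, against a rise of 1.09 in MCM4 itself. Around CDC6 the median of 41 genes was -0.35, and around MCM6 the median of 7 genes was -0.26. The medians around MCM2, MCM5, MCM7 and MCM10 lay between -0.06 and 0.14. Around CDT1, 20 of 38 genes rose and 2 fell, with a median of 0.56. Around GMNN, 30 of 43 genes rose with a median of 0.92, and without the 26 histone genes there the median was 0.35.

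The genes outside these lists with the most similar profile over the 5 libraries were SEC61A2, PMPCA and COQ2. Likeness was the distance between log2 CPM profiles, each centred on its mean, to the mean profile of the ring subunits, and genes below a mean log2 CPM of 5 were left out. The distances were 0.0502, 0.0512 and 0.0535 on the log2 scale. SEC61A2, of the protein channel of the endoplasmic reticulum, had 43.5 ± 2.93 CPM in the knockout and 24.2 ± 0.676 CPM in wild type. PMPCA, of the mitochondrial processing peptidase, had 207 ± 13.3 CPM in the knockout and 111 ± 0.996 CPM in wild type, and COQ2, of ubiquinone synthesis, had 55.6 ± 3.19 CPM in the knockout and 30.4 ± 1.47 CPM in wild type (SD, n = 3 and n = 2).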

How the data were processed

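The authors deposited raw whole-number footprint counts, 1 row for each transcript and symbol, as the header and values show. The header names stand 1 cell left of their values, and columns were assigned by name after that shift. Per the labels' protocols, cycloheximide lysates were digested with RNase I and fragments of 28 to 32 nt were cloned. Bowtie (version not given) and hg38 are named in the submitters' processing notes; how reads were counted (tool, annotation, duplicates, strand, multiple mapping) is not given in the sources used here, so paralogs and overlapping genes are uncertain.

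Counts were fitted in R 4.3.3 with edgeR 4.0.16 (TMM, filterByExpr with a minimum count of 10, quasi-likelihood test on genotype, with p adjusted by Benjamini-Hochberg over 11205 genes and a threshold of 0.05). Standard errors of fold changes were taken as their size over the square root of F. Alternatives used DESeq2 1.42.0 and limma 3.58.1 among others, and the procedure was tested on simulated data. GENCODE 29 gave positions and coding lengths (stop codon left out), and 13525 rows had a coding length. The genes named were the 9 licensing genes, ZCCHC4, the up to 3 genes of smallest adjusted p in each list of the pathway and of cell cycle phases (not the cell type markers or fusion partners), and the 3 closest profiles; others are said to be named after their values were seen. The members and lists were chosen with earlier results of these data known.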

Additional observations from a re-analysis of the deposited data

How the results depend on the processing

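Each of the 9 licensing genes was refitted under 17 alternatives, and all 153 results kept the direction and stayed under an adjusted p of 0.05. The largest adjusted p was 0.0316, for MCM7, with both wild-type libraries summed into 1 and knockout replicates 1 and 3 summed into 1. In that setting, and where a wild-type library was left out, wild type was a single library, assumed to vary as the knockout libraries do. With library totals the log2 fold changes were 0.23 for MCM7, 0.35 for MCM2 and up to 1.17 for CDT1, while the median of all genes moved to -0.20 and the split of all genes was 2391 higher and 4564 lower, against 3380 and 3341 with TMM. Taking out a trend on coding length and level gave 0.25 for MCM7 and 0.58 for GMNN. The replicate block gave 9 of 9 rises, with 3068 genes higher and 3026 lower; same-numbered libraries had deviations correlated at -0.0507 and -0.0493, so the numbers were not taken to pair them. DESeq2 and limma-voom also gave 9 of 9 rises. The log2 difference of the summed ring was 0.59 with library totals and 0.78 to 0.83 with a library left out. That of the GMNN to CDT1 ratio was -0.45, and -0.16 without knockout replicate 2.

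MCM8 had log2 fold changes of -0.02 with upper-quartile scaling, -0.17 with library totals, -0.03 with the stricter filter (a mean count of 50 or more), and -0.04 to 0.13 with a library left out, below 0 without wild-type replicate 1 (-0.04) and without knockout replicate 1 (-0.01). ORC3 had -0.05 with upper-quartile scaling, -0.20 with library totals, -0.06 with the stricter filter, -0.01 with the replicate block, -0.01 after summing near-identical libraries, and -0.10 with the trend on coding length, GC content and level. With a library left out it was -0.08 without wild-type replicate 1, -0.05 without knockout replicate 1 and -0.01 without knockout replicate 3, and 0.12 without wild-type replicate 2. The log2 difference of the ring sum over MCM10 was -0.07, and 0.03 without wild-type replicate 1. The cause of these changes was not tested. Thinned to the smallest library total, the adjusted p of MCM7 was 0.000567, and without knockout replicate 2 it was 5.90e-18.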
